A study of Capsicum annuum and Solanum lycopersicum with 125 samples.

Results

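The JASMONATE ZIM-DOMAIN (JAZ) repressors and the transcription factor SlMYC2 of tomato were followed in stems of grafted and ungrafted plants. The set holds 9 listed JAZ genes and SlMYC2 (Solyc08g076930), 10 of the 34688 genes in the tomato count matrix, chosen by gene identifier and not by their values. The JAZ genes are given by identifier, since no annotation of tomato was used here to number them or to check their identity. Tissue came from Solanum lycopersicum M82, either as tomato scions grafted onto pepper stocks (heterografted scions, tomato:pepper), as tomato stocks carrying pepper scions (heterografted stocks, pepper:tomato), as scions and stocks of self-grafted tomato (tomato:tomato), or as ungrafted stems of the same age. The pepper partner was Capsicum annuum California Wonder. Grafted plants healed in the dark for the first 3 days, and ungrafted plants went through the same recovery procedure. A short piece of stem beside the junction was taken 7, 14 or 21 days after the graft was made (DAG), and its polyadenylated RNA was sequenced from the 3′ end, with 3 to 5 libraries per group and 61 in all. The question was how transcript levels at an incompatible tomato and pepper junction differ from those at a compatible one and in intact stem.

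Jasmonate is the hormone that plants make on wounding and on attack by herbivores and necrotrophs. When levels of its active form are low, JAZ proteins bind MYC2 and hold it inactive. When the hormone rises, the receptor COI1 captures the JAZ proteins, they are degraded, and the freed MYC2 switches on wound response genes, among them the JAZ genes themselves, so that JAZ transcripts serve as a common marker of jasmonate signalling.

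Levels are given as CPM, the gene's count relative to the library's total count, in replicate order, and are compared within a gene only. Of the 10 genes, 6 passed the filter on low counts and were tested within a table of 12176 genes: SlMYC2 and the JAZ genes Solyc07g042170, Solyc12g009220, Solyc03g122190, Solyc01g005440 and Solyc08g036660. Another 3 JAZ genes, Solyc12g049400, Solyc03g118540 and Solyc11g011030, were detected but had mean counts of 4.10, 5.48 and 7.64 per library. The JAZ gene Solyc06g068930 had 0 counts in all 61 libraries. A call needed both an adjusted p (edgeR) under 0.05 and a log2 fold change of more than 1.5, up or down. In a bulk stem sample, fewer cells of a type and less RNA per cell cannot be told apart.

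Library totals ran from 952084 to 3136541 counts, apart from the heterografted stocks of 14 DAG (900 to 1509 counts) and of 21 DAG (32731 to 267066). In the 14 DAG stocks every listed gene was at 0, except for 1 count of SlMYC2 in replicate 3. Since 3 counts there equal 1988 to 3333 CPM, that group was left out of every comparison. A count of 0 beside high counts was common in this matrix: of all pairs of gene and group in which a library reached 20 counts, 11.4% also held a library at 0. The floors given here cover counting error only.

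In 3 libraries several listed genes were high together, and 1 further library held 0 counts for 4 of the 6 tested genes. In replicate 1 of the self-grafted scions of 14 DAG all 6 genes were at their group's highest value. There Solyc07g042170 was 3.45 times, Solyc03g122190 3.71 times and Solyc08g036660 4.43 times the next highest library, and SlMYC2 1.51 times. In replicate 1 of the self-grafted stocks of 14 DAG the same 3 JAZ genes were 3.42, 2.51 and 5.59 times the next highest library. In replicate 2 of the ungrafted stems of 21 DAG, Solyc12g009220 was 20.1 times, Solyc03g122190 2.78 times and SlMYC2 3.30 times the next highest library. These 3 libraries had totals of 1724068, 1848765 and 1864014 counts. The other was replicate 1 of the heterografted stocks of 7 DAG, with 1372534 counts, the lowest total of its group. The labels do not say whether a scion and a stock of equal number came from the same plant.

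**Figure D1:**
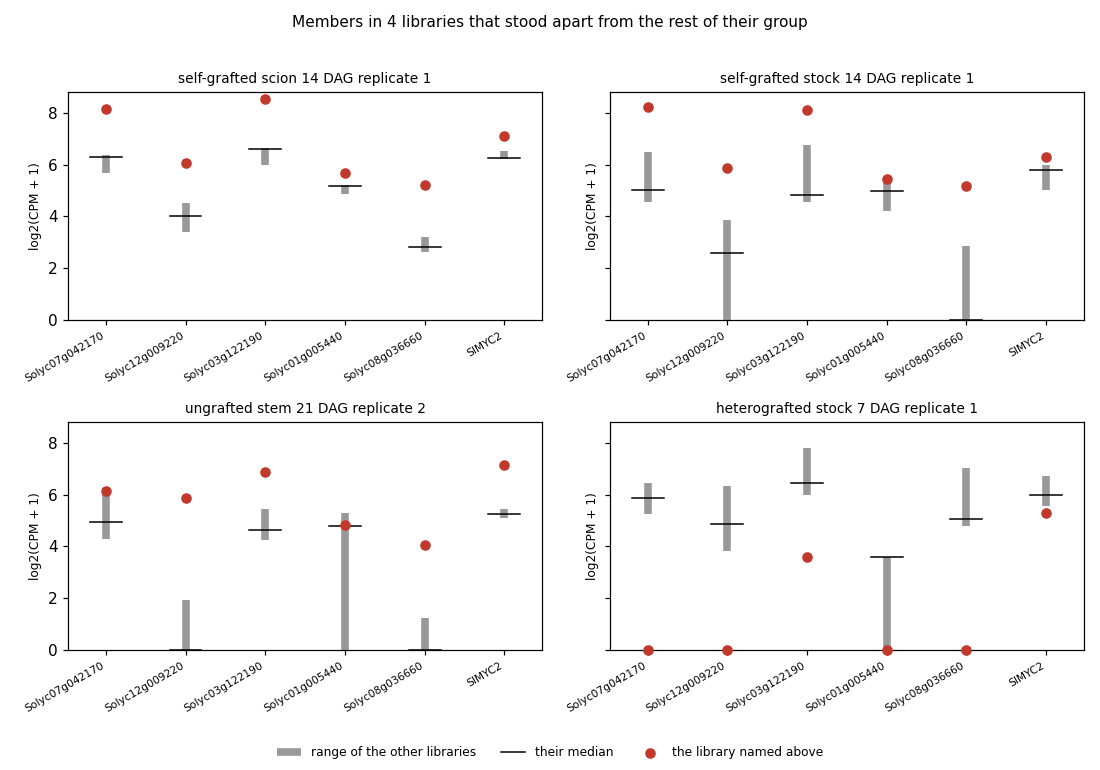
Level of the 6 tested genes, as log2(CPM + 1), in the 4 libraries that stood apart (red points), with the range (grey bar) and median (black line) of the other libraries of the same group. In 3 libraries several JAZ genes lie above the whole range of their group, and in replicate 1 of the heterografted stocks of 7 DAG 4 genes are at 0.

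SlMYC2, the activator that JAZ proteins restrain, was expressed in every group and was at 0 only in 2 of the 14 DAG stocks. At 7 DAG its level was 51.2, 56.0, 58.4, 41.8 and 78.1 CPM in heterografted scions and 37.9, 62.8, 45.6 and 104 CPM in heterografted stocks. Self-grafted scions had 51.7, 42.8, 76.7 and 75.7 CPM and self-grafted stocks 54.5, 37.6 and 85.5 CPM, against 29.9, 24.0, 36.3 and 35.8 CPM in ungrafted stems. All 16 grafted libraries of 7 DAG thus lay above all 4 ungrafted ones, a pattern shared by 2.18% of the genes tested, and SlMYC2 was the only 1 of the 6 to show it. The means were 57.1 ± 13.4 CPM in heterografted scions (SD, n = 5), 62.5 ± 29.4 in heterografted stocks (n = 4), 61.7 ± 17.1 in self-grafted scions (n = 4) and 59.2 ± 24.3 in self-grafted stocks (n = 3), against 31.5 ± 5.78 in ungrafted stems (n = 4). None of the 4 comparisons with ungrafted stems passed the test singly: the adjusted p (edgeR) was 0.125 for heterografted scions, 0.0539 for heterografted stocks, 0.204 for self-grafted scions and 0.264 for self-grafted stocks. These comparisons share the ungrafted libraries. Replicate 1 of the heterografted stocks, in which most JAZ counts were 0, was also set aside, a choice that rests on the listed genes themselves. Without it the log2 fold change of SlMYC2 in heterografted stocks over ungrafted stems was 1.03 ± 0.32 (SE, adjusted p = 0.0196), below the fold threshold.

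No difference of SlMYC2 with the graft partner was detected at 7 DAG, where the adjusted p (edgeR) was 0.928 for heterografted over self-grafted scions and 0.965 for heterografted over self-grafted stocks. At 14 DAG the self-grafted scions had the highest levels, 136, 90.4, 73.1 and 74.8 CPM, all above the 41.1, 34.0, 34.0, 63.0 and 25.9 CPM of ungrafted stems. The log2 fold change was 1.10 ± 0.30 (SE, adjusted p = 0.0203), again short of the fold threshold, and without replicate 1 of the self-grafted scions it was 0.84 (adjusted p = 0.0774). Heterografted scions of 14 DAG, at 51.4, 43.7, 57.1 and 96.9 CPM, overlapped with both. Their log2 fold change over ungrafted stems was 0.95 (adjusted p = 0.021) with DESeq2's size factors and did not pass with TMM. That scaling also placed the median of all genes at 0.58, against 0.11 with TMM. By 21 DAG the means of heterografted scions (77.8 ± 19.4 CPM, n = 4), self-grafted scions (76.9 ± 28.8, n = 4), self-grafted stocks (63.6 ± 12.5, n = 5) and ungrafted stems (62.9 ± 50.5, n = 4) did not differ beyond their spread (adjusted p from 0.886 to 0.998 over the 4 comparisons with TMM). The ungrafted mean rested on replicate 2, at 138 CPM, and the other 3 ungrafted stems, at 33.6, 41.9 and 37.5 CPM, lay below every grafted library of that day other than a heterografted stock of 41.2 CPM. Without replicate 2 the log2 fold change over ungrafted stems was 0.84 in heterografted scions (adjusted p = 0.0792), 0.96 in self-grafted scions (0.307) and 0.72 in self-grafted stocks (0.31), and none passed the test.

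**Figure D2:**
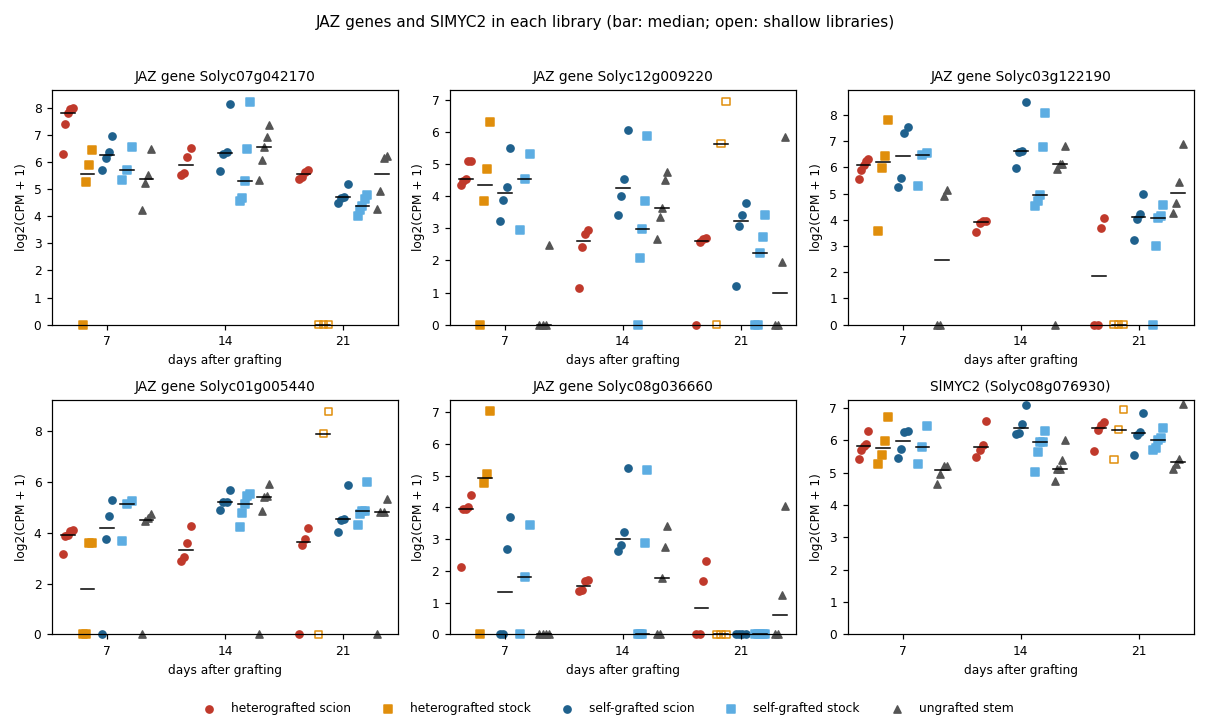
Level of the 6 tested genes in each library, as log2(CPM + 1) against days after grafting, with groups by colour, a black bar at each group's median and open squares for the shallow heterografted stocks of 21 DAG; the 14 DAG heterografted stocks are not drawn. SlMYC2 lies between 24.0 and 138 CPM in all libraries drawn, whereas the JAZ genes Solyc12g009220 and Solyc08g036660 are at 4.52 CPM or less in ungrafted stems of 7 DAG and below every self-grafted scion in heterografted scions of 14 DAG.

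At 7 DAG the JAZ repressor genes Solyc12g009220 and Solyc08g036660 rose in both heterografted tissues over ungrafted stems. Neither was called in heterografted over self-grafted tissue of that day. In heterografted scions over ungrafted stems 2 of the 6 genes were called, both higher, where 8.16% of all tested genes were called. Solyc12g009220 had 19.1, 21.4, 22.4, 32.9 and 33.3 CPM in heterografted scions, against 4.52, 0, 0 and 0 CPM in ungrafted stems. Every heterografted scion lay above every ungrafted stem, and the log2 fold change was 4.10 ± 1.177 (SE, adjusted p = 0.0213, edgeR), a call lost in 3 of the 9 fits that left out 1 library. Solyc08g036660 had 15.01, 14.4, 3.31, 14.6 and 19.9 CPM in heterografted scions, against 0 counts in all 4 ungrafted libraries. Its mean was at least 6.02-fold higher than the floor of 3 counts per ungrafted library (adjusted p = 0.0386), a call that was lost in 8 of the 9 fits that left out 1 library. The groups also did not overlap for Solyc03g122190 and SlMYC2, which makes 4 of 6 genes, against 15.5% of all genes tested.

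The heterografted stocks of 7 DAG shared these 2 calls over the same ungrafted stems, a comparison in which 19.5% of all genes were called. Solyc08g036660 had 0, 32.2, 26.5 and 129.7 CPM there, at least 21.1-fold higher on average than the ungrafted floor (adjusted p = 0.00551). Solyc12g009220 had 0, 28.0, 13.3 and 78.6 CPM, a log2 fold change of 4.33 ± 1.20 over ungrafted stems (SE, adjusted p = 0.00884). Both calls were kept in 8 of 8 fits that left out 1 library. With these 2 groups alone in the fit, only Solyc08g036660 was called (adjusted p = 0.0453). The groups overlapped for both genes through replicate 1, the library at 0. Without it, Solyc03g122190 was called too (log2 fold change 2.81, adjusted p = 0.0209). Since that library was set aside for its low levels of the listed genes, this call is no separate support. Solyc03g122190 had 10.9, 85.7, 61.7 and 223 CPM in heterografted stocks, against 34.4, 0, 29.1 and 0 CPM in ungrafted stems.

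None of the 6 genes was called in self-grafted scions over ungrafted stems at 7 DAG, where 1.93% of all genes were called, or in self-grafted stocks over ungrafted stems, where 1.19% were. Solyc12g009220 had 18.5, 13.7, 8.40 and 43.8 CPM in self-grafted scions and 22.01, 6.72 and 39.0 CPM in self-grafted stocks, all above the ungrafted stems. Its unadjusted p was 0.00482 in the scions and 0.00531 in the stocks (adjusted p = 0.0969 and 0.11, edgeR), and DESeq2 called it in each, as did the fit without replicate 1 of the heterografted stocks (log2 fold change 3.85, adjusted p = 0.032 in scions and 3.92, adjusted p = 0.0439 in stocks). That library was picked by its levels of the listed genes, so the fit without it is no separate support. Solyc08g036660 had 0 to 12.0 CPM in self-grafted scions (median 2.72) and 0 to 9.91 CPM in self-grafted stocks (median 2.50). It was at 0 in all ungrafted stems, and neither comparison passed (adjusted p = 0.269 and 0.284, edgeR). In all, 4 of the 6 genes had an unadjusted p under 0.05 in self-grafted scions and 3 in self-grafted stocks. The share of all genes under that limit was not computed for any comparison, so such counts have no background here. Heterografted over self-grafted tissue, which asks what the pepper partner adds, gave 0 calls among the 6 genes in scions (2.37% of all genes called) and 0 in stocks (10.5% called). Under an unadjusted p of 0.05, 0 genes passed in scions and 1 in stocks, and DESeq2 gave 0 calls in both. The difference between the heterograft effect in scion and in stock was called for 0 of the 6 genes (8.26% of all genes called), 0 passed an unadjusted p of 0.05, and DESeq2 called 0.

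Solyc07g042170, the JAZ gene with the highest mean count, was high in most heterografted scions of the first day sampled. It had 249, 167, 77.5, 221 and 254 CPM in heterografted scions of 7 DAG. Self-grafted scions had 123, 51.4, 70.4 and 81.2 CPM, and ungrafted stems 87.5, 36.3, 45.4 and 17.9 CPM. In 4 of the 5 heterografted scions the gene was above every other library of 7 DAG, while replicate 3 overlapped with the other groups. The difference from ungrafted stems missed the threshold (adjusted p = 0.0623, edgeR). It passed with DESeq2 (log2 fold change 1.94, adjusted p = 0.0266). It also passed without replicate 1 of the heterografted stocks in the fit (1.88, adjusted p = 0.00517), a library picked by its levels of the listed genes. Heterografted stocks of that day, at 0, 57.7, 37.5 and 85.3 CPM, lay within the range of ungrafted stems but for the library at 0.

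Solyc01g005440 had 13.5, 16.2, 7.87, 13.9 and 15.9 CPM in heterografted scions of 7 DAG, against 38.1, 12.6, 0 and 24.0 CPM in self-grafted scions and 26.0, 20.8, 0 and 23.0 CPM in ungrafted stems. Each heterografted scion lay below the 3 ungrafted stems in which this gene was detected, and the groups overlapped through the library at 0. No comparison of this gene at 7 DAG passed the test.

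At 14 DAG the JAZ gene Solyc03g122190 fell in heterografted scions relative to self-grafted scions, the only 1 of the 6 tested genes to pass. It had 13.7, 14.7, 10.5 and 14.6 CPM in heterografted scions, against 364, 95.9, 62.3 and 98.1 CPM in self-grafted scions. The lowest self-grafted library was thus far above the highest heterografted one, and the log2 fold change was -3.49 ± 1.001 (SE, adjusted p = 0.0179, edgeR). In this comparison 5.63% of all genes were called. Without replicate 1 of the self-grafted scions, which held the 364 CPM, the log2 fold change was -2.60 and the call was lost (adjusted p = 0.0713). With the 4 libraries that stood apart left out together, it held (adjusted p = 0.0399).

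Of the other JAZ genes, Solyc12g009220 had 6.66, 6.06, 1.22 and 4.30 CPM in heterografted scions of 14 DAG, against 65.0, 21.9, 9.58 and 15.1 CPM in self-grafted scions. Solyc08g036660 had 2.22, 1.59, 1.62 and 2.31 CPM against 36.5, 6.03, 5.19 and 8.26 CPM, and Solyc01g005440 had 18.1, 6.38, 7.29 and 11.2 CPM against 49.9, 28.5, 36.3 and 35.5 CPM. For 4 of the 6 genes, all of them JAZ genes, every heterografted scion lay below every self-grafted scion, as it did for 16.7% of all genes tested. All 6 fitted differences were negative under each scaling, with a median of -2.15 on the log2 scale beside 0.04 over all genes. Of all calls here 38.9% were higher in heterografted scions with TMM and 69.9% with DESeq2's size factors. With only these 2 groups in the fit, the same 4 JAZ genes were called (adjusted p from 0.00388 to 0.0265). The share of all genes called in that fit was not computed, so this count has no background. Solyc07g042170, at 47.0, 72.4, 44.6 and 90.3 CPM in heterografted scions and 282, 81.7, 50.3 and 77.2 CPM in self-grafted scions, overlapped between the groups, as did SlMYC2. The JAZ genes Solyc03g118540 and Solyc12g049400, below the filter on low counts, were not lower in heterografted scions of 14 DAG: Solyc03g118540 had 2.96, 6.06, 8.91 and 6.28 CPM there, against 5.22, 0, 3.59 and 5.34 CPM in self-grafted scions, and Solyc12g049400 had 2.22, 5.74, 0 and 6.94 CPM, against 5.80, 6.03, 2.79 and 0 CPM.

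Against ungrafted stems of 14 DAG, 1 of the 6 genes was called in heterografted scions, where 9.7% of all genes were. This was Solyc01g005440, lower by 1.74 ± 0.63 on the log2 scale (SE, adjusted p = 0.0491). Its ungrafted levels were 42.3, 28.3, 41.3, 0 and 59.0 CPM, so the groups overlapped through the library at 0, and the call was lost in 7 of the 9 fits that left out 1 library and under both other scalings. Without the libraries that stood apart its adjusted p was 0.0625, and Solyc03g122190 was called in its place (log2 fold change -2.29, adjusted p = 0.0392). None of the 6 was called in self-grafted scions over ungrafted stems (3.33% of all genes called) or in self-grafted stocks over ungrafted stems (1.59% called) at 14 DAG. In scions 1 gene, SlMYC2, and in stocks 0 passed an unadjusted p of 0.05, and DESeq2 called 0 in each. Self-grafted stocks of this day spread widely. Solyc07g042170 had 299, 87.6, 22.6, 38.6 and 24.5 CPM there, against 119, 39.7, 163, 65.5 and 92.8 CPM in ungrafted stems, so that the self-grafted range enclosed the ungrafted one. Solyc03g122190 had 269.9, 107, 25.6, 22.3 and 29.6 CPM in these stocks, against 112, 0, 69.9, 60.6 and 69.1 CPM in ungrafted stems, again with overlap.

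At 21 DAG none of the 6 genes was called over ungrafted stems in heterografted scions (7.44% of all genes called), self-grafted scions (0.156% called) or self-grafted stocks (0.0903% called). An unadjusted p under 0.05 was reached by 1 gene in heterografted scions, 2 in self-grafted scions and 3 in self-grafted stocks, again with no share over all genes to set beside it. DESeq2 called 1 gene in heterografted scions, 0 in self-grafted scions and, in self-grafted stocks, Solyc07g042170 (log2 fold change -1.52, adjusted p = 0.00273). In heterografted scions the gene was Solyc03g122190, at 0, 0, 11.9 and 15.8 CPM, against 42.1, 117, 18.1 and 24.1 CPM in ungrafted stems. The groups did not overlap, but the difference missed the threshold (adjusted p = 0.0628, edgeR). It passed with the shallow stocks left out of the fit (log2 fold change -2.91, adjusted p = 0.0409), and without the libraries that stood apart it was -2.15 (adjusted p = 0.217). Heterografted and self-grafted scions of 21 DAG differed in 0 of the 6 genes (8.13% of all genes called), 0 passed an unadjusted p of 0.05, and DESeq2 called 0.

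Solyc03g122190 fell between 7 and 21 DAG in heterografted scions and in self-grafted scions and stocks. In heterografted scions the log2 fold change was -3.09 ± 1.02 (SE, adjusted p = 0.0364), with 0 to 15.8 CPM at 21 DAG and 45.6 to 78.1 CPM at 7 DAG. In self-grafted scions it was -2.48 ± 0.98 (adjusted p = 0.0438), with 30.8, 8.34, 15.3 and 17.7 CPM at 21 DAG, against 185, 46.8, 36.8 and 157 CPM at 7 DAG. In self-grafted stocks it was -2.41 ± 0.98 (adjusted p = 0.0498), with 23.0, 0, 6.96, 16.7 and 15.7 CPM at 21 DAG, against 87.0, 38.0 and 91.7 CPM at 7 DAG. Days did not overlap in any of the 3 tissues. Each call lay near the threshold and was lost in 5 of 9, 6 of 8 and 6 of 8 fits that left out 1 library, in that order of tissues, and in all 3 without the filter on low counts. DESeq2 called Solyc03g122190 in heterografted and self-grafted scions but not in self-grafted stocks, where it called Solyc08g036660 instead.

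Solyc07g042170 also fell with time in heterografted scions, to 51.7, 42.6, 49.0 and 40.5 CPM at 21 DAG. The log2 fold change over 7 DAG was -2.04 ± 0.64 (SE, adjusted p = 0.0271), and days did not overlap, but the call was lost in 5 of 9 fits that left out 1 library. These were the 2 of 6 genes called in this tissue, where 3.33% of all genes were called. Together with Solyc12g009220, 3 of the 6 genes had every library of 21 DAG below every library of 7 DAG, beside 13.2% of all genes. In self-grafted scions and in self-grafted stocks 1 of the 6 genes was called, where 17.7% of all genes were called in each. Without the libraries that stood apart 3 were called in each, and the share of all genes called in that fit is not given here. In scions these included Solyc07g042170 (log2 fold change -1.52, adjusted p = 0.00587) and Solyc08g036660 (adjusted p = 0.0211). In stocks they included Solyc12g009220 (-2.45, adjusted p = 0.0444) and Solyc08g036660 (adjusted p = 0.0196). Solyc08g036660 was at 0 in every self-grafted library of 21 DAG, on average at least 2.52-fold lower than at 7 DAG in scions and at least 2.39-fold lower in stocks. At 7 DAG it was already at 0 in 2 of 4 self-grafted scions and 1 of 3 self-grafted stocks, so the days overlapped. With all libraries in the fit neither change passed (adjusted p = 0.0581 in scions and 0.055 in stocks, edgeR). The change from 7 to 21 DAG in heterografted scions was called as different from that in self-grafted scions for 0 of the 6 genes (5.58% of all genes called), 0 passed an unadjusted p of 0.05, and DESeq2 called 0.

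In ungrafted stems the change over time rested on 1 library. There 1 of the 6 genes was called over time, where 18.9% of all genes were: Solyc12g009220, with a log2 fold change of 3.54 ± 1.43 (SE, adjusted p = 0.0467). It had 0, 56.9, 0 and 2.83 CPM at 21 DAG, against 4.52, 0, 0 and 0 CPM at 7 DAG. Without replicate 2 of 21 DAG the log2 fold change was -0.55 (adjusted p = 0.852). SlMYC2, at 33.6, 138, 41.9 and 37.5 CPM in ungrafted stems of 21 DAG, had a log2 fold change over 7 DAG of 1.09 ± 0.37 (adjusted p = 0.017), which was 0.36 (adjusted p = 0.475) without that library.

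In the heterografted stocks of 21 DAG depth limited every statement. The paper also reports degraded RNA in incompatible stocks, judged by low alignment rates and most marked on the last day sampled. Whether RNA quality or reads from the pepper partner affected the levels given here was not tested. Against ungrafted stems 60.3% of all genes were called and the median gene was lower by 3.74 on the log2 scale, and fold changes are read beside that shift. Of the 6 genes, 3 were called. Solyc07g042170 had 0 counts in all 3 stocks, against 74.4, 70.3, 29.7 and 18.4 CPM in ungrafted stems. Solyc03g122190 also had 0 counts in all 3. With 3 counts per library as the floor, the means were at least 1.24-fold lower for Solyc07g042170 and at least 1.3-fold lower for Solyc03g122190 (adjusted p = 5.12e-06 and 0.0114, edgeR). Both calls were kept in every fit that left out 1 library. Against self-grafted stocks, where 59.8% of all genes were called and the median shift was -3.67, 1 of the 6 was called, again Solyc07g042170 (adjusted p = 8.94e-05). Self-grafted stocks had 19.8, 17.5, 15.2, 26.8 and 24.1 CPM, below the 38.7 CPM at which the floor of the shallow stocks averaged, so no fold is given.

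Solyc01g005440 stood against that shift. It had 437, 0 and 236 CPM in heterografted stocks of 21 DAG (99, 0 and 63 counts), against 63.2, 28.0, 25.9, 18.7 and 28.3 CPM in self-grafted stocks and 38.5, 27.4, 26.8 and 0 CPM in ungrafted stems. In 2 of 3 stocks it was above every other library of the study, and the other, replicate 2, was the shallowest, in which 3 counts equal 91.7 CPM. The log2 fold change over ungrafted stems was 2.43 ± 0.95 (SE, adjusted p = 0.0321). It was 3.54 when libraries were scaled by total alone, 2.19 with DESeq2's size factors and 2.60 with thinned counts, all called. The call was lost without the filter on low counts (2.12, adjusted p = 0.075), with DESeq2, with the replicate block and with the compared groups alone. Without replicate 1 the log2 fold change was 1.78 (adjusted p = 0.163). Of the 7 fits that left out 1 library 4 lost the call, as did the fit without the libraries that stood apart (adjusted p = 0.0506). Solyc12g009220 had 48.6, 122 and 0 CPM in these stocks, from 11, 4 and 0 counts, and did not pass the test. SlMYC2 had 79.5, 122 and 41.2 CPM there, from 18, 4 and 11 counts. Its log2 fold change over ungrafted stems was -1.06 with TMM (adjusted p = 0.0713), -1.20 with DESeq2's size factors (adjusted p = 0.0322), -1.39 without the filter on low counts (adjusted p = 0.0298) and -0.32 without the libraries that stood apart (adjusted p = 0.443), and turned to 0.18 with totals alone (adjusted p = 0.789). Over self-grafted stocks it was -1.04 with TMM (adjusted p = 0.0688), -1.35 without the filter (adjusted p = 0.0298), -1.04 without the libraries that stood apart (adjusted p = 0.0117) and 0.16 with totals alone (adjusted p = 0.812). All of these were smaller in size than the shift of the median gene with TMM.

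The 3 JAZ genes below the filter were at 0 in 31 to 42 of the 61 libraries. Solyc11g011030 was at 0 in all 4 heterografted scions of 14 DAG, against 29.6, 14.3, 11.2 and 14.6 CPM in self-grafted scions, and was at least 16.3-fold lower. With no filter on low counts this difference was called (adjusted p = 0.0187 over 21152 genes, edgeR). The same gene was at 0 in all 4 heterografted stocks of 7 DAG, against 22.5, 11.9 and 14.3 CPM in self-grafted stocks, at least 9.64-fold lower, a difference that was not called without the filter (adjusted p = 0.0582). Solyc03g118540 lay in the other direction, with 6.73, 6.63, 4.56, 12.0 and 12.4 CPM in heterografted scions of 7 DAG and 0 counts in all ungrafted stems of that day, at least 3.80-fold higher (adjusted p = 0.0274 without the filter, over 20702 genes). Solyc12g049400 had 8.80, 11.8, 4.14, 3.16 and 8.46 CPM in heterografted scions of 7 DAG, above the 1.69, 0, 0 and 0 CPM of ungrafted stems, and was at 0 in all self-grafted libraries of 21 DAG.

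**Figure D3:**
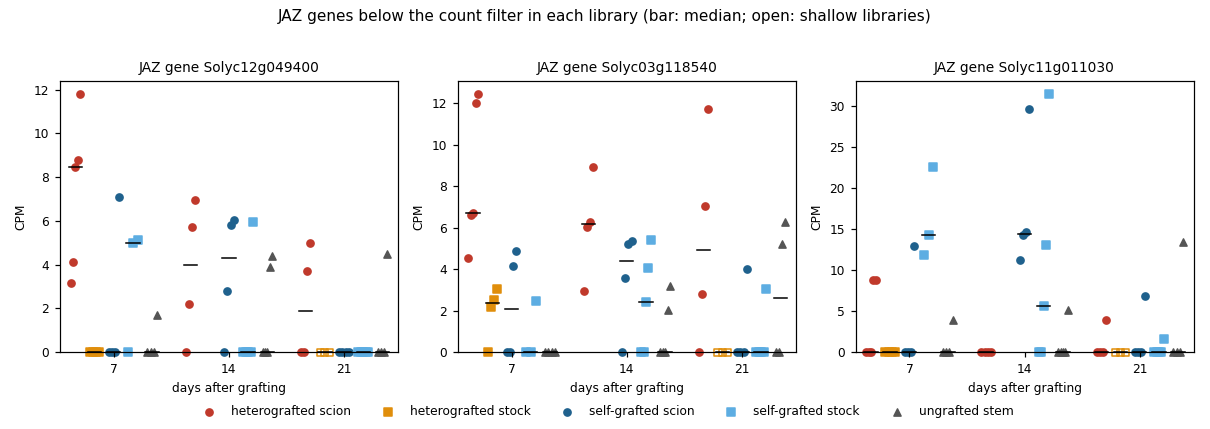
Level in CPM of the 3 JAZ genes that did not pass the filter, in each library, against days after grafting, with groups by colour, a black bar at each group's median and open squares for the shallow heterografted stocks of 21 DAG; the 14 DAG heterografted stocks are not drawn. Solyc11g011030 is at 0 in every heterografted scion of 14 DAG and at 11.2 CPM or more in every self-grafted scion, and Solyc03g118540 is detected in every heterografted scion of 7 DAG and in no ungrafted stem of that day.

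Likeness between genes was taken on log2(CPM + 1) with CPM scaled by TMM, across the 55 libraries other than the heterografted stocks of 14 and 21 DAG. The genes most like SlMYC2 were Solyc09g009840 (Pearson's r = 0.70) and Solyc06g075190 (0.70), and the fifth most alike had an r of 0.66. For the JAZ gene Solyc07g042170 they were Solyc07g018010 (0.76) and Solyc07g063240 (0.74), and the fifth had 0.70. These values describe likeness over libraries that share groups and days, and carry no test.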

How the data were processed

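Libraries were made with the Lexogen QuantSeq FWD kit, so that a transcript gives reads near its 3′ end only. Before deposit, the authors cleaned reads in Trimmomatic and Prinseq, ran STAR 2.7.10b (version from the submitters' processing notes) against the ITAG4 tomato models, obtained counts per gene from StringTie and removed libraries with few reads. They deposited raw counts per gene without normalization. All 61 tomato columns were matched to samples by title and grouped by graft type, position and day. Biological replicates were 3 to 5 per group, and the pepper matrix was not used here.

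Counts were analysed in R 4.3.3. After the authors' filter, genes were dropped if they averaged under 10 counts or were at 0 in at least 75% of libraries, which left 12176 genes. The 5 groups of each day, or all 15 groups for changes over time, were fitted together with edgeR 4.0.16 (quasi-likelihood, TMM scaling), with Benjamini-Hochberg adjustment across the genes tested. Each standard error (SE) was derived from the fold change and its F statistic. The procedure was tested on simulated data. A fold change against a group at 0 is a lower bound, computed on CPM with 3 counts per library as the floor.

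The members and lists were chosen with earlier results of these data known. All 10 genes are named. Fold changes are given for differences with an adjusted p under 0.05 in the TMM fit of all groups, and for some others that an alternative passed or turned round. For SlMYC2 and the JAZ gene with the highest mean count, the 5 most alike genes were sought and 2 are named. A list of other jasmonate genes, cell type markers, chromosome positions and sequences were not used here, since they need a tomato annotation. Alternatives were DESeq2 1.42.0 and its size factors, scaling by totals alone, no filter, no fold threshold, a replicate block, fits of the 2 compared groups alone, thinned counts (seed 1) and each library left out in turn. Leaving out the 4 libraries that stood apart, or the shallow heterografted stocks, was chosen after the data were seen.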

Additional observations from a re-analysis of the deposited data

Results flagged for a closer look

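Dixon's 95% limit was applied to 69 sets of CPM values, each a tested gene in a group of 4 or 5 libraries. In 17.4% of the sets a library's gap to its neighbour exceeded that limit. The limit flags about 1 in 20 only for independent sets of normal values. CPM values are skewed, a set detected in 1 library only is always flagged, and several tested genes vary together across libraries. The share is therefore not compared with chance. Of the 12 values, 9 came from 3 libraries. In replicate 1 of the self-grafted scions of 14 DAG, Solyc03g122190 was at 364 CPM, Solyc07g042170 at 282 CPM and Solyc08g036660 at 36.5 CPM, each above all other libraries of the group. In replicate 1 of the self-grafted stocks of 14 DAG, Solyc07g042170 was at 299 CPM, Solyc12g009220 at 57.9 CPM and Solyc08g036660 at 35.2 CPM. In replicate 2 of the ungrafted stems of 21 DAG, SlMYC2 (Solyc08g076930) was at 138 CPM, Solyc12g009220 at 56.9 CPM and Solyc08g036660 at 15.6 CPM.

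The other 3 values stood alone. Solyc01g005440 was high in replicate 1 of the self-grafted stocks of 21 DAG, at 63.2 CPM, with the next library at 28.3 CPM. Solyc12g009220 was at 0 in replicate 4 of the heterografted scions of 21 DAG, where the others had 4.98 to 5.48 CPM. It was at 4.52 CPM in replicate 1 of the ungrafted stems of 7 DAG and at 0 in the others.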

How the results depend on the processing

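Counts of the 6 genes called were small and moved by 1 to 3 with the processing. Shares of all genes called in the alternative fits are not given here, so these counts have no background. Over ungrafted stems, DESeq2 called 1 gene in place of 0 in self-grafted scions of 7 DAG, self-grafted stocks of 7 and 21 DAG and heterografted scions of 21 DAG. It also called 2 in heterografted over self-grafted stocks of 21 DAG and 3 in self-grafted scions of 21 over 7 DAG. The single gene called in heterografted scions over ungrafted stems of 14 DAG was lost (0 called) with DESeq2, DESeq2's size factors, totals alone, no filter, the replicate block and the compared groups alone. With an adjusted p alone, 1 gene (SlMYC2) passed in self-grafted scions over ungrafted stems of 14 DAG and 2 in ungrafted stems of 21 over 7 DAG. For 21 over 7 DAG, DESeq2's size factors gave 0 in ungrafted stems, 3 in self-grafted scions and 2 in self-grafted stocks, totals alone gave 0 in ungrafted stems and 2 in self-grafted stocks, and no filter gave 0 in these 3 tissues and 1 in heterografted scions. Heterografted over self-grafted stocks of 21 DAG gave 2 with DESeq2's size factors, totals alone or the compared groups alone, and 3 with counts thinned to equal depth. Heterografted over self-grafted scions of 14 DAG gave 4 with the compared groups alone, which gave 1 for heterografted stocks over ungrafted stems of 7 DAG. Without the filter Solyc03g122190 stayed called in these scions. Solyc11g011030, which is not among the 6 tested genes, was called beside it.

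With the 4 libraries that stood apart left out, a choice made after seeing the data, self-grafted scions and stocks over ungrafted stems of 7 DAG gave 1 gene each, ungrafted stems of 21 over 7 DAG gave 0, and self-grafted scions and stocks of 21 over 7 DAG gave 3 each. Solyc12g009220 then turned direction in ungrafted stems of 21 over 7 DAG, at -0.55. Without the shallow heterografted stocks, heterografted scions over ungrafted stems of 21 DAG gave 1. The causes were not tested.

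Leaving out 1 library at a time, over ungrafted stems, gave 0 to 1 genes in self-grafted scions of 7 DAG, self-grafted stocks of 7 DAG and heterografted scions of 14 and 21 DAG, 0 to 3 in heterografted scions of 7 DAG, and 2 to 3 in heterografted stocks of 7 and 21 DAG. It gave 0 to 2 in heterografted over self-grafted scions of 14 DAG and 1 to 2 in heterografted over self-grafted stocks of 21 DAG. For 21 over 7 DAG it gave 0 to 1 in ungrafted stems and 0 to 2 in each of the 3 grafted tissues. The fold change of Solyc12g009220 in ungrafted stems of 21 over 7 DAG ran between -0.55 and 7.87.

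Libraries of equal replicate number did not deviate together in general. Over all tested genes the median correlation of their deviations was 0.0215 at 7 DAG, 0.000969 at 14 DAG and -0.00249 at 21 DAG. The lowest was -0.223 and the highest 0.241. These pairs join all groups of a day, among them groups that cannot share a plant. The medians thus cannot tell whether a self-grafted scion and stock of equal number came from 1 plant. Replicate 1 of the self-grafted scions and of the self-grafted stocks of 14 DAG did share high JAZ levels. As a hint only, a fit with the number as a block changed 2 counts of calls, to 0 in place of 1 in heterografted scions over ungrafted stems of 14 DAG and to 2 in place of 3 in heterografted stocks over ungrafted stems of 21 DAG. It lost Solyc01g005440 in the scions (-1.68, adjusted p = 0.114) and in the stocks (2.15, adjusted p = 0.0689).

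With another scaling the share of higher calls among all genes moved by over 10 percentage points in 12 of 22 comparisons, most in heterografted scions of 21 over 7 DAG (56.5% with TMM, 24.9% with DESeq2's size factors), and the median of all genes moved by over 0.1 in 19. Depth limits the heterografted stocks of 21 DAG, where a count of 0 allows up to 91.7 CPM, and the 3 genes below the filter, whose levels rest on few reads. Counts of 0 beside high counts are part of the spread of the JAZ genes: Solyc03g122190 held 281 counts in a group that also held a 0.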
